A study of Caenorhabditis elegans with 4 samples.

Results

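Basement membranes are thin sheets of extracellular matrix that underlie epithelia and surround muscle, gonad and nerve. Laminin and type IV collagen each form a network in the sheet, nidogen and perlecan bind to these networks, and hemicentin joins neighbouring tissues across their basement membranes. In Caenorhabditis elegans the body wall muscle makes much of the type IV collagen, and other tissues take part in supplying laminin and the remaining proteins.

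The genes described here encode 10 such proteins, found by their symbols in the array platform's annotation: emb-9, let-2, epi-1, lam-1, lam-2, lam-3, nid-1, unc-52, cle-1 and him-4. They are 10 of 14921 tested genes with a single symbol, each has 1 probe, and each had a value on all 4 arrays. For 6 of them the annotation lists more than 1 transcript, up to 5 for unc-52, so a probe's value cannot be assigned to an isoform.

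RNA of wild-type C. elegans at the second larval stage (wt L2) was measured in 4 preps, with 1 array for each prep, against a wild-type mixed reference. The sources used here name neither the animals' strain and age in hours nor what the reference mixed. Each value is the authors' log2 ratio of the 2 channels of an array, centred on that array's median, so 1 unit is a 2-fold difference. The labels list the reference as channel 1 and L2 as channel 2 without naming dyes, so positive values are read as likely higher in L2, and the opposite reading would turn every sign below.

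Yolk and sperm protein genes, products of stages later than L2, served as a check of that reading: 31 of 32 were lower and 0 higher, with a median of the mean log2 ratios of -3.31 and the yolk protein genes vit-2 (-5.59 ± 0.78) and vit-5 (-5.42 ± 0.99; SD, n = 4) the lowest. Correlations between arrays over all probes ran from 0.476 to 0.728, so no array opposed another. In limma's fit over all 19941 features (genes, plus those probes that carry no or several gene names), 4.85% were higher in L2 and 9.87% lower at an adjusted p under 0.05. Whether the preps were separate cultures is not stated in the labels, so the spread behind the p-values may be technical. It also leaves out the spread of the reference. Limma draws each feature's variance toward that of all features, so its p-values and intervals do not rest on a gene's own spread alone. For genes with a large SD, such as unc-52 and let-2, both are smaller than that spread alone would give. In RNA of whole animals, fewer cells of a type and less RNA per cell cannot be told apart.

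Of the 10 basement membrane genes, 3 were higher in L2 than in the reference and 0 were lower, against the 4.85% of all features that were higher. These were the laminin alpha chain epi-1, the collagen alpha chain emb-9 and hemicentin, him-4. The other 7 did not pass, and 6 of the 10 had an unadjusted p under 0.05, all with a mean above 0, as had 13.8% of all features in that direction. The median of the 10 mean log2 ratios was 0.71, beside 0.01 over all features. Means were above 0 for 9 of the 10, but only epi-1, emb-9, him-4 and lam-2 were above 0 in all 4 preps, as were 20.1% of all features.

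**Figure D1:**
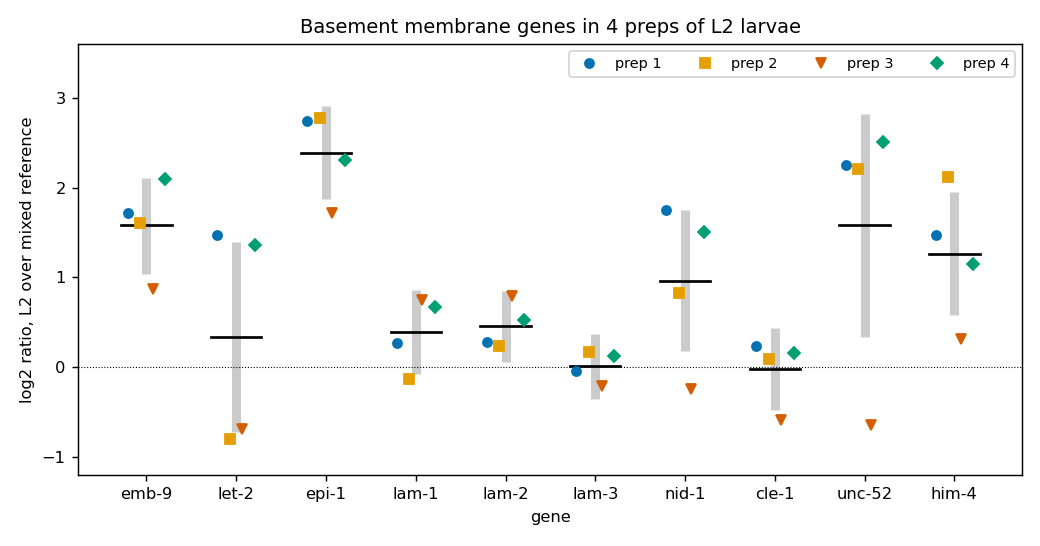
Log2 ratio of L2 over the mixed reference (vertical axis) for each basement membrane gene (horizontal axis). Symbols are the 4 preps, black lines the means and grey bars limma's 95% confidence intervals. Prep 3 is the lowest value for 7 genes and the highest for lam-1 and lam-2, and let-2 splits into a high and a low pair of preps.

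Type IV collagen is assembled as a trimer of emb-9 (alpha 1) and let-2 (alpha 2) chains, and both chains are needed for its secretion. For emb-9, the log2 ratios were 1.72, 1.61, 0.87 and 2.10 in preps 1, 2, 3 and 4. All lay above 0 and above the 92nd percentile of their arrays, with the lowest in prep 3 (percentile 92.6). The mean of 1.58 ± 0.51 (SD, n = 4) is 2.98-fold, with limma's 95% confidence interval at 2.06 to 4.31, and it passed limma's test (adjusted p = 0.00677). It passed without any 1 prep (adjusted p from 0.00702 to 0.0387), but not when tested against a fold of 1.5 (adjusted p = 0.0505).

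The let-2 ratios fell apart into a high and a low pair, at 1.47 in prep 1 and 1.36 in prep 4, against -0.80 in prep 2 and -0.69 in prep 3. On preps 1 and 4 the probe stood at percentiles 96.4 and 97.8 of its array, and on preps 2 and 3 at 16.6 and 16.7. The mean was 0.34 ± 1.25 (SD, n = 4; limma adjusted p = 0.624), and its interval of 0.609- to 2.62-fold admits lower as well as higher levels in L2. Its SD was larger than that of 97.3% of the features. Transcripts of let-2 are known to switch between alternative exons during development, and the annotation used here pairs the probe with 1 transcript.

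Preps with high and with low let-2 each include one of both months given in the array labels, since preps 1 and 2 share a month, as do preps 3 and 4. By month the let-2 mean was 0.34 in either pair. The rows of the value table fall into 32 equal runs of neighbouring probes, and the median of the run that holds let-2 was -0.03, 0.10, 0.22 and 0.08 in preps 1 to 4. The cause of the split was not tested.

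Among 14510 other genes with 4 values, the one whose ratios lay nearest to those of let-2 was ost-1, the gene of SPARC, a collagen-binding protein of basement membranes. Nearness is the root-mean-square distance over the 4 preps, here 0.263 on the log2 scale, and the search was added after the values were seen. The ost-1 ratios were 1.52, -0.38, -0.38 and 1.29 in preps 1 to 4. Its mean of 0.51 ± 1.04 (SD, n = 4) did not pass limma's test (adjusted p = 0.377). The probes of let-2 and ost-1 lie 11508 rows apart in the value table. By the same measure emb-9 ranked 11320th, at a distance of 1.49. The next genes were cTel55X.1 (0.395), the hedgehog-related wrt-10 (0.415), mbf-1 (0.447) and the patched-related ptr-15 (0.455).

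In each prep emb-9 was above let-2, by 0.24, 2.41, 1.56 and 0.74 on the log2 scale, a difference between their ratios and not between their levels. The mean difference was 1.24 ± 0.95 (SD, n = 4; exact sign-flip permutation test, two-sided, p = 0.125). This is the smallest p that 4 preps allow, so the design cannot reach 0.05. Over the 7 pairs of subunits compared here, collagen and laminin together, the Benjamini-Hochberg value of this exact test was 0.175.

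Laminin is a trimer of an alpha, a beta and a gamma chain. In C. elegans the alpha chain is either epi-1 or lam-3, and both share the beta chain lam-1 and the gamma chain lam-2. The ratios of epi-1 were the highest of the 10 genes in preps 1, 2 and 3 and second to unc-52 in prep 4, at 2.74, 2.78, 1.72 and 2.31 in preps 1 to 4. It stood at or above percentile 99.1 of every array, and its mean of 2.39 ± 0.49 (SD, n = 4), or 5.23-fold (95% interval 3.65 to 7.5), ranked 56th of 19941 features. Its limma adjusted p was 0.00161, and it passed without each of the preps (adjusted p from 0.00402 to 0.0115) and against a fold of 1.5 (adjusted p = 0.0053).

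The other alpha chain, lam-3, stayed close to the array medians, at -0.04, 0.17, -0.21 and 0.12. Its mean was 0.01 ± 0.17 (SD, n = 4; limma adjusted p = 0.974), with an interval of 0.781- to 1.30-fold, below the 3.65 to 7.5 of epi-1. Such an interval covers only spread between the preps. It rests on the probe's own variance drawn toward that of all features, not on the probe's spread alone. Only ratios were used, so how strong the signal of the lam-3 probe was is not known. In all 4 preps epi-1 exceeded lam-3, by 2.79, 2.61, 1.93 and 2.19, on average 2.38 ± 0.39 (SD, n = 4; exact sign-flip permutation test, two-sided, p = 0.125, the smallest possible). This was the most even of the 3 differences between epi-1 and another laminin chain.

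The chains common to both trimers were only slightly positive. The beta chain lam-1 gave 0.27, -0.13, 0.75 and 0.67 in preps 1 to 4, with a mean of 0.39 ± 0.41 (SD, n = 4; limma adjusted p = 0.218). The gamma chain lam-2 gave 0.28, 0.23, 0.79 and 0.52, with a mean of 0.46 ± 0.26 (SD, n = 4; adjusted p = 0.111), or 1.37-fold with an interval of 1.04 to 1.80. These are the members that were highest in prep 3, where most others were lowest.

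The ratios of lam-1 and lam-2 followed each other, with differences of 0.00, -0.37, -0.04 and 0.15 in preps 1 to 4 and a mean difference of -0.06 ± 0.22 (SD, n = 4; exact sign-flip permutation test, two-sided, p = 0.625). Their probes lie 58 rows apart in the value table, in the same run of neighbouring probes. That run's median was 0.12, -0.05, 0.09 and 0.15 in preps 1 to 4, and its part in their likeness was not tested. With each run centred on its own median, prep 3 was still the highest for both, at 0.67 for lam-1 and 0.71 for lam-2.

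The ratios of epi-1 exceeded those of lam-1 by 2.00 ± 0.87 and those of lam-2 by 1.93 ± 0.75 (SD, n = 4). Both differences were positive in 4 of 4 preps and smallest in prep 3, at 0.97 and 0.93 (exact sign-flip permutation test, p = 0.125 for each). The shared chains in turn were above lam-3 by 0.38 ± 0.53 for lam-1 (exact p = 0.25), with prep 2 reversed at -0.30, and by 0.45 ± 0.40 for lam-2 in 4 of 4 preps (exact p = 0.125). After adjustment over the 7 pairs the exact values ran from 0.175 to 0.625, so 0 pairs passed a threshold that this design could not reach.

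Nidogen, encoded by nid-1, binds laminin and type IV collagen. Its log2 ratios were 1.75, 0.83, -0.24 and 1.51 in preps 1 to 4, high in preps 1 and 4 and below the array median in prep 3. The mean of 0.96 ± 0.89 (SD, n = 4), or 1.95-fold, did not pass limma's test (adjusted p = 0.0961). Without prep 3 it did, at a mean of 1.36 (adjusted p = 0.0212). In prep 2 the run that holds its probe had a median of -0.49, and centred on it nid-1 stood at 1.32 there.

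The multiplexin collagen gene cle-1, whose protein carries an endostatin domain and is found in the nervous system's basement membranes, lay near 0 at 0.24, 0.09, -0.59 and 0.16. Its mean of -0.02 ± 0.38 (SD, n = 4; limma adjusted p = 0.942) had an interval of 0.718- to 1.35-fold. The sign of this mean depends on prep 3: without it the mean was 0.16 (adjusted p = 0.463). It also turned to above 0 with deposited values and with mean centring, scale and quantile normalization, so no direction can be given.

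Perlecan, encoded by unc-52, is the heparan sulfate proteoglycan through which body wall muscle is anchored to the basement membrane. Of the 10 genes it had the widest range, with 2.25, 2.21 and 2.51 in preps 1, 2 and 4 and -0.65 in prep 3. In those 3 preps it was at percentile 98.5 or above, second among the members only to epi-1 in preps 1 and 2, and in prep 3 it was at percentile 18. The mean of 1.58 ± 1.49 (SD, n = 4) equals that of emb-9 to 2 decimals, but limma's adjusted p was 0.0876. Without prep 3 the mean was 2.33 (adjusted p = 0.00402), and without prep 1, 2 or 4 it was 1.36, 1.37 and 1.27 (adjusted p from 0.224 to 0.262).

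Such a low value in prep 3 was not confined to unc-52. Of 85 features above 2 in preps 1, 2 and 4, 27 (31.8%) were below 0 in prep 3, with bounds set after the values were seen. The run that holds unc-52 had a median of -0.53 in prep 3, against -0.02, -0.18 and -0.13 in preps 1, 2 and 4. Centred on its run, unc-52 was at -0.12 in prep 3 and reached 2.27 to 2.64 elsewhere, and the adjusted p was 0.0527. Weighting the arrays (adjusted p = 0.0122) or a robust fit (adjusted p = 0.00366) brought it past the threshold.

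Hemicentin, encoded by him-4, is secreted by muscle and by gonadal leader cells and holds tissues together at restricted sites. Its ratios were 1.47, 2.12, 0.31 and 1.15 in preps 1 to 4, all above 0, with prep 3 the lowest. The mean of 1.26 ± 0.75 (SD, n = 4), or 2.40-fold (95% interval 1.49 to 3.87), passed limma's test (adjusted p = 0.0327). This call ended without prep 1 (0.121), prep 2 (0.105) or prep 4 (0.0832), with centring within runs (0.053) and with a robust fit (0.0556).

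**Figure D2:**
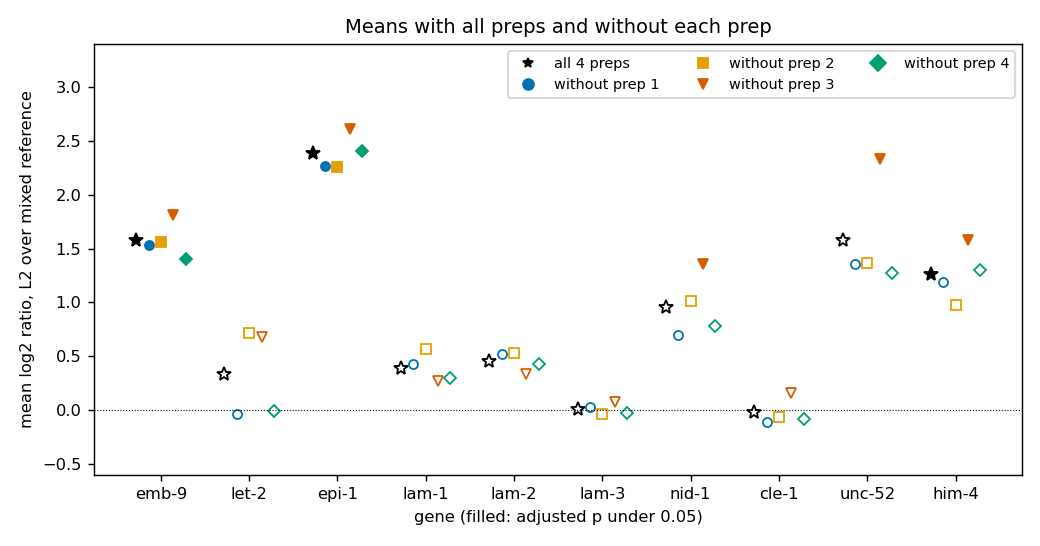
Mean log2 ratio of each gene (vertical axis) with all 4 preps and without each prep, filled where limma's adjusted p was under 0.05. Only epi-1 and emb-9 are filled in all 5 fits. Without prep 3, nid-1 and unc-52 also pass.

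Prep 3 set the members apart from one another. It held the lowest value for 7 of the 10 genes (29.0% of all features were lowest there) and the highest for lam-1 and lam-2 (34.1% of all features were highest there), while let-2 was lowest in prep 2. The median of the 10 ratios was 1.47, 0.53, 0.05 and 1.26 in preps 1 to 4. Above the 90th percentile of their array were 6, 4, 3 and 7 of the genes. In prep 3 these were emb-9, epi-1 and lam-2.

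Without prep 3, 5 of the 10 genes were higher (epi-1, emb-9, unc-52, him-4 and nid-1), against 6.53% of all features in that fit. Without prep 1, 2 or 4 it was epi-1 and emb-9 alone, against 1.27%, 1.45% and 2.38% of all features. With all preps but arrays weighted by their spread, unc-52 and nid-1 joined the 3 called genes (8.61% of all features were higher), and against a fold of 1.5 only epi-1 passed (0.747% were higher). By the months of the array labels, the means of preps 1 and 2 and of preps 3 and 4 were 1.67 and 1.49 for emb-9, and 2.76 and 2.01 for epi-1. For him-4 they were 1.79 and 0.73, and for unc-52 2.23 and 0.93. The means of these 4 genes were thus above 0 in both months and lower in the month that holds prep 3. For unc-52 the mean in that month averages -0.65 in prep 3 and 2.51 in prep 4. The means of lam-1 (0.07 and 0.71) and lam-2 (0.26 and 0.66) went the other way.

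**Figure D3:**
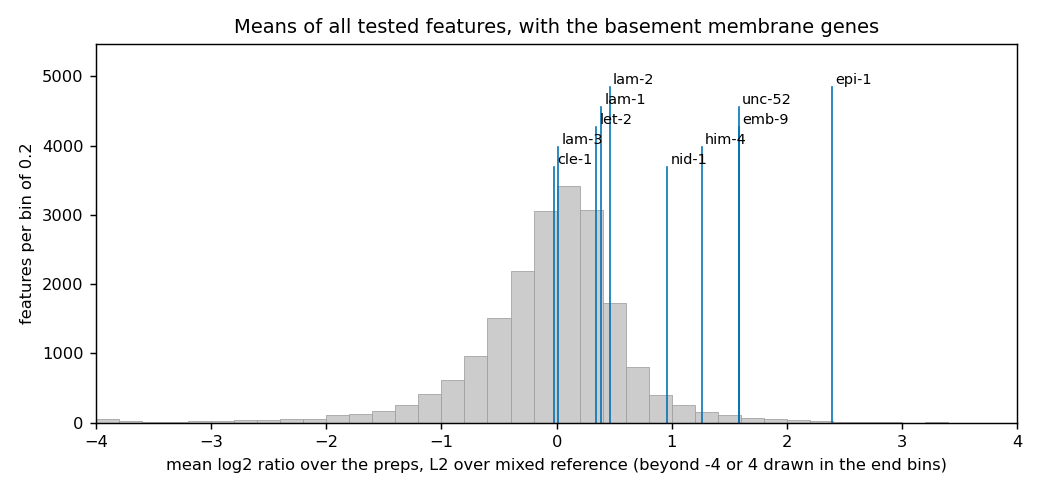
Number of features (vertical axis) by mean log2 ratio of L2 over the mixed reference (horizontal axis, bins of 0.2), with lines at the 10 basement membrane genes. The means of epi-1, emb-9, unc-52, him-4 and nid-1 lie in the right tail, and those of lam-3 and cle-1 at the centre.

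Other genes of the matrix and its remodelling were mostly not past the threshold. Of 23 tested, 5 were higher (21.7%, beside 4.85% of all features) and 1 lower (4.35%, beside 9.87%), with a median of the means of 0.41. The highest was dig-1, a very large matrix protein that keeps neurons and gonad in place, at 1.93, 1.06, 2.35 and 2.04 in preps 1 to 4. All 4 preps were high, with prep 2 the lowest, and the mean was 1.85 ± 0.55 (SD, n = 4; limma adjusted p = 0.00467). It passed without any 1 prep (adjusted p from 0.0071 to 0.0279).

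The secreted protease genes adt-1 (0.93 ± 0.59, adjusted p = 0.0477) and mig-17, which guides the gonad's leader cells (0.91 ± 0.09, adjusted p = 0.00999), were higher too. So were the gene pxn-2 of the peroxidasin family, enzymes that crosslink type IV collagen (0.88 ± 0.31, adjusted p = 0.0218) and the F-spondin gene spon-1 (0.69 ± 0.10, adjusted p = 0.026), named with mig-17 after their values were seen. The lower one was timp-1, of the family of metalloprotease inhibitors (-0.87 ± 0.49, adjusted p = 0.0419; SD, n = 4 for each). Calls were fewer without prep 1, 2 or 4, with 1, 2 and 2 in all, and 9 without prep 3. Over all features calls numbered 1068, 1127 and 1658 without prep 1, 2 or 4, and 3056 without prep 3. The calls of adt-1, pxn-2, spon-1 and timp-1 each ended without prep 1, 2 or 4, and that of mig-17 without prep 1 (0.0585). Likewise named relatives of the called genes, pxn-1 (-0.16 ± 0.18), adt-2 (0.35 ± 0.37) and adt-3 (0.70 ± 0.92), did not pass. Not past the threshold were also the fibulin gene fbl-1 (0.00 ± 0.27), the gonad-shaping protease gene gon-1 (0.47 ± 0.57) and the papilin gene mig-6 (0.72 ± 1.34), which was at -1.29 in prep 3 and from 1.23 to 1.56 in the others. Without prep 3, gon-1 (adjusted p = 0.0367) and mig-6 (0.00921) passed.

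Of 16 receptor and linker genes, 1 was higher (6.25%, near the 4.85% of all features) and 0 were lower, with a median of 0.16. It was the integrin alpha chain pat-2, needed in muscle attachment, at 1.11, 1.21, 0.44 and 1.01 in preps 1 to 4, all positive and lowest in prep 3. Its mean was 0.94 ± 0.35 (SD, n = 4; limma adjusted p = 0.0198), and the call ended without prep 1 (0.0923), 2 (0.0864) or 4 (0.0737), leaving 0 receptor calls in those fits and 4 without prep 3 (6.53% of all features were higher without prep 3). At an unadjusted p under 0.05, 1 receptor gene was lower. The partner of pat-2, the beta chain pat-3, was at 0.55, 0.68, -1.62 and 0.46, thus moderately positive in all preps but the third. The mean of pat-3 was 0.02 ± 1.10 (adjusted p = 0.978), that of the other alpha chain ina-1 was 0.13 ± 0.39 (adjusted p = 0.661) and that of dystroglycan, dgn-1, 0.46 ± 0.55 (adjusted p = 0.222; 0.0406 without prep 3).

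Genes of collagen folding, heparan sulfate synthesis and secretion gave 1 higher and 1 lower call among 22, with a median of 0.50. Each call is 4.55% of the list, no more than the 4.85% of all features that were higher and the 9.87% that were lower. The protein disulfide isomerase gene pdi-6 was higher (1.40 ± 0.50, SD, n = 4; limma adjusted p = 0.00927), a call that ended without prep 2 (0.0511). The heparan sulfate enzyme gene hst-1 was lower (-1.03 ± 0.51, SD, n = 4; adjusted p = 0.027), a call that ended without prep 1 (0.0961) or 2 (0.0807). The prolyl 4-hydroxylase of collagen has dpy-18 as an alpha and pdi-2 as a beta subunit. Both had negative ratios in prep 3 only, with means of 0.74 ± 0.85 for dpy-18 (adjusted p = 0.161) and 1.29 ± 1.16 for pdi-2 (adjusted p = 0.0825). The list's other alpha subunit gene, phy-2, went the other way, at -0.12, -0.69, -1.08 and -0.35 in preps 1 to 4. Its mean was -0.56 ± 0.42 (adjusted p = 0.107), and it was named after its values were seen. Without prep 3, dpy-18 and pdi-2 passed (adjusted p = 0.0187 and 0.00778), as did 10 of the 22 genes. Without preps 1, 2 and 4, 1, 0 and 2 passed. Of all 19941 features, 3056 passed without prep 3, and 1068, 1127 and 1658 without preps 1, 2 and 4. Prep 3 was the lowest for 18 of the 22 folding and secretion genes, 12 of the 16 receptor genes and 29.0% of all features.

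**Figure D4:**
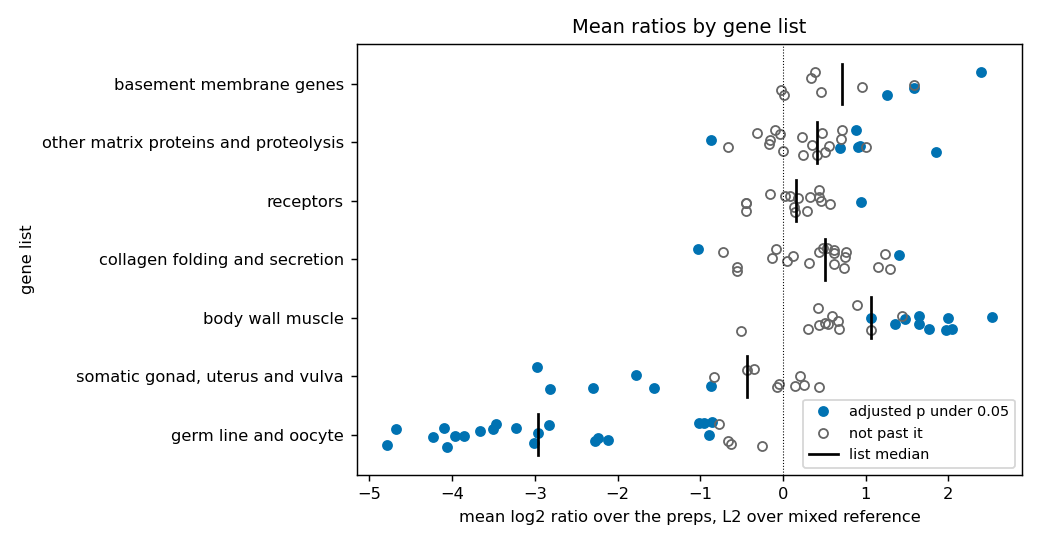
Mean log2 ratio over the preps (horizontal axis) for the genes of each list (vertical axis), filled where limma's adjusted p was under 0.05, with list medians as black lines. The basement membrane genes reach from near 0 to 2.39, a range shared with body wall muscle genes and with intestine genes (not drawn), while germ line genes lie below 0. Vertical scatter within a list has no meaning.

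Markers of tissues that make or carry basement membranes were counted in the same fit, in which 4.85% of all features were higher and 9.87% lower. Of 22 body wall muscle genes, 10 were higher and 0 lower, with a median of the means of 1.06, against 0.71 for the 10 basement membrane genes and 0.93 for 9 intestine genes. The muscle medians were 1.62, 1.40, 0.58 and 1.13 in preps 1 to 4, and prep 3 was lowest for 15 of the 22. The titin gene ttn-1 (2.53 ± 0.32, SD, n = 4; limma adjusted p = 0.00075) passed without any 1 prep. The body wall myosin gene myo-3 (2.04 ± 1.06, adjusted p = 0.0174) was at 0.47 in prep 3 and lost its call without prep 1, 2 or 4 (adjusted p from 0.0587 to 0.0819). Muscle calls numbered 7, 7, 18 and 9 without preps 1, 2, 3 and 4, where 1.27%, 1.45%, 6.53% and 2.38% of all features were higher. The other body wall myosin, unc-54, had the same form as unc-52, with 2.20, 2.04 and 2.22 in preps 1, 2 and 4 and -0.69 in prep 3 (mean 1.44 ± 1.42, adjusted p = 0.098).

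Germ line and oocyte genes were low, with 21 of 25 lower, 0 higher and a median of -2.96. Their lowest were the eggshell genes perm-2 (-4.79 ± 1.02, limma adjusted p = 0.001) and cpg-2 (-4.68 ± 0.86, adjusted p = 0.00075). Of 15 genes of somatic gonad, uterus and vulva 6 were lower and 0 higher, with a median of -0.43, led by the sheath innexin inx-8 (-2.98 ± 1.15, adjusted p = 0.00613) and tbh-1, an enzyme of octopamine synthesis also made in the gonadal sheath (-2.82 ± 0.43, adjusted p = 0.0008). Intestine genes had 4 of 9 higher, among them cpr-5 (3.22 ± 0.28, adjusted p = 0.000445) and act-5 (1.99 ± 0.52, adjusted p = 0.00319). In the hypodermis list 1 of 12 was higher, the cuticle collagen rol-6 (1.53 ± 0.64, adjusted p = 0.012; 0.0598 without prep 1), and of 12 neuronal genes 0 passed, with egl-21 farthest from 0 (-0.93 ± 0.69, adjusted p = 0.0647; SD, n = 4 throughout). At an unadjusted p under 0.05, 0 of the neuronal genes were above and 3 below 0, and counts in the directions with 0 calls were 0 for muscle, 0 for germ line and 1 for somatic gonad genes. The part of these tissues' share of the RNA in the basement membrane values was not tested.

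Genes near averaged profiles of the members over the 4 preps were sought among 14501 other genes. An average need not resemble any member, as emb-9 (1.61) and let-2 (-0.80) lay far apart in prep 2. Nearest to the mean of emb-9 and let-2 (1.59, 0.41, 0.09 and 1.73 in preps 1 to 4) were the cuticle collagen dpy-9 at a root-mean-square distance of 0.128, then C46H11.7 (0.168), gsto-1 (0.17), lpr-6 (0.223) and eef-1A.2 (0.262). Nearest to the median of the 10 genes were eef-1A.2 (0.0797), a translation elongation factor, rbm-28 (0.115), atp-1 (0.184), the tubulin mec-12 (0.187) and clec-49 (0.203). Of these genes only clec-49 passed the threshold.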

How the data were processed

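The only values used were the log2 ratios of the series' value table as deposited by the authors, 1 column for each of 4 arrays. Base 2 was settled from the values, since 100% of the ratios below 0.9 lay within 0.05 of whole thousandths on each array. How the authors corrected background, normalized and filtered spots, and which dyes they used, no source used here states. Deposited medians were 0.0158, 0.058, 0.0552 and 0.0186 for preps 1 to 4. Precision is limited by the number of arrays.

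Of 21632 probes, 16450 had 1 gene symbol in the platform's annotation, 247 several and 4935 none, and gene IDs of 16360 single-gene probes were found in RefSeq's table (WBcel235). Arrays were centred on their medians and probes of a gene averaged. For features with 3 or 4 values, limma 3.58.1 (R 4.3.3) tested the mean against 0, two-sided, with Benjamini-Hochberg adjustment over all 19941. Its empirical Bayes step draws each feature's variance toward a value shared by all features. The fit was checked on simulated data. Differences between subunits used exact sign-flip tests (SciPy 1.17.1).

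Members and lists were chosen with earlier results of these data known. Named are all members, from each other list the 2 highest and 2 lowest genes past the threshold (or, with none, the 1 farthest from 0), and the 5 nearest profiles. Further genes named as partners of members or relatives of called genes were chosen after their values were seen.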

Additional observations from a re-analysis of the deposited data

Results flagged for a closer look

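One value of the 10 basement membrane genes stood far from the others of its gene, that of unc-52 in prep 3, at -0.65 against 2.21 to 2.51. Its gap to the nearest prep exceeded Dixon's limit for 4 samples. Chance flags about 1 in 20 groups, and 7.34% of the 19153 features with 4 values exceeded the limit. Among 44 of the further genes named here, 4 did so, also in prep 3: the body wall myosins myo-3 (0.47) and unc-54 (-0.69), the integrin chain pat-3 (-1.62) and the papilin gene mig-6 (-1.29). Some of the 44 were named after their values were seen, so this count cannot be set beside the share of all features.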

How the results depend on the processing

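Over 15 alternatives, 7 of the 10 genes kept the sign of their mean, and epi-1 its call throughout. The count of 3 members past the threshold was 5 with array weights, 1 against a fold of 1.5 and from 2 to 5 when 1 prep was left out. The 2936 features became 652 against a fold of 1.5 and from 1068 to 3056 without 1 prep. The 61 genes of the lists of other matrix, receptor, and folding and secretion genes had 9 calls (7 higher). They had 23 with array weights, 15 with a robust fit, 14 with the label's month as a random block, 1 against a fold of 1.5 and from 2 to 23 without 1 prep. Signs turned only near 0 or with a split gene: cle-1 (-0.02) was at 0.01 with deposited values and with scale normalization, 0.04 with mean centring, 0.0 with quantile normalization, 0.1 with array weights, 0.09 with a robust fit and 0.11 with run centring, and from -0.11 to 0.16 without 1 prep. For lam-3 (0.01) it was -0.15 with run centring and from -0.04 to 0.08 without 1 prep, and for let-2 (0.34) from -0.04 to 0.72 without 1 prep. Array weights were 1.62, 0.925, 0.455 and 1.47 for preps 1 to 4. The causes were not tested. No paired analysis was possible because all 4 preps form 1 group.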
